A study of Mus musculus with 8 samples.

Results

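The Tip60 complex, also called the NuA4 complex, was followed here through 10 of its genes, namely Kat5, Ing3, Meaf6, Epc1, Ep400, Ruvbl1, Ruvbl2, Trrap, Brd8 and Dmap1. They were chosen by name out of the 39017 genes of the gene table, and all of their rows in 5 tables of splicing events were read with them, which gave 6 of 1918 events. The data are RNA-seq of induced germinal center-like B cells, primary mouse splenic B cells of strain C57BL6/J collected on day 4 of culture with IL-4 at 1 ng/mL on 40LB cells, fibroblast feeders that display CD40L and BAFF. The 4 Prmt5-null libraries came from Prmt5 F/F Cγ1-cre mice and the 4 control libraries from Cγ1-cre mice, so that both groups carried the Cre and differed in the floxed Prmt5 alleles. Each library is a separate mouse, named below by its label. Cγ1-cre is driven from an immunoglobulin heavy chain locus that is switched on by activation, so Prmt5 is lost during the culture and not before it, and the groups compare cells shortly after excision. The labels give neither the age nor the sex of the mice, and they do not say which library belongs to which of the 2 experiments of the design.

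The complex joins a pair of activities. Kat5 (Tip60) acetylates the tails of histones H4 and H2A and also non-histone proteins such as the kinase Atm, and Ep400 is an ATPase that exchanges H2A for the variant H2A.Z. The complex is recruited to promoters by transcription factors such as Myc and to sites of DNA breaks, which activated B cells make in their own antibody genes during class switching. Prmt5 is the main enzyme of symmetric arginine dimethylation, and the Sm proteins of the spliceosome are among its known substrates, so the comparison asks both how much RNA each subunit gene gave and how that RNA was spliced.

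In 4 of the 6 genes with an event the altered segment is shown here. What the splice choice does to the reading frame was worked out from the whole annotated transcripts and not from the segment alone. Sequences are those of GENCODE vM21 transcripts (GRCm38), given 5′ to 3′ on the gene's strand. In Kat5 the segment is a cassette exon at chr19:5608802-5608957 (minus strand), exon 5 of 14 in transcript Kat5-201, with its first 3 and last 3 bases in capitals. In Ep400 it is the exon at chr5:110668550-110668745 (minus strand), exon 48 of 52 in Ep400-201, shown with 20 bases of the intron before it and 6 bases of the intron after it, and with the acceptor AG and the donor GT in capitals. In Meaf6 it is an exon at chr4:125107652-125107709 (plus strand), exon 6 of 8 in Meaf6-208, of which the first 30 bases are shown with the in-frame stop codon in capitals. In Dmap1 it is the intron at chr4:117675804-117675949 (minus strand), which follows exon 7 of 11 in Dmap1-201, shown with 3 exon bases on each side and with the donor GT and the acceptor AG in capitals.
Kat5 exon: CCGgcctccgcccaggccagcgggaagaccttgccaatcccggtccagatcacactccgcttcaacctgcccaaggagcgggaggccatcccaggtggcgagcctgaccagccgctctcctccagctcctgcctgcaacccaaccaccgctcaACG
Ep400 exon with flanks: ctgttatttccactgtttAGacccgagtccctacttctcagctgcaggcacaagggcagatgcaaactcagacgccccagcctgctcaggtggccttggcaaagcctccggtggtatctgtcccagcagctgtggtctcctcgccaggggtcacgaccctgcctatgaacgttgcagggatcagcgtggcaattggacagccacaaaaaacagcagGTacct
Meaf6 exon, first 30 bases: gtatgtatatTAGgttaggctgggaagttt
Dmap1 intron with flanks: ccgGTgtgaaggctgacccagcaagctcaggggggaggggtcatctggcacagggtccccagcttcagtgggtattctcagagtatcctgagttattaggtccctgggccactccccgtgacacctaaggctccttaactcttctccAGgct

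The Kat5 exon holds 156 bases, a multiple of 3, and codes for codons 96 to 147 of the 513 codons of Kat5-201, so that skipping it removes 52 codons and leaves the frame open. This is the proline-rich stretch whose absence defines the shorter Tip60 isoform, Tip60β. The Ep400 exon holds 196 bases, not a multiple of 3. Joining its neighbours in Ep400-201 shifted the frame and brought a stop after 2776 codons in place of 3035, with 3 exon junctions still to follow and the last of them 308 bases further on. The Meaf6 exon of 58 bases carries a stop from its base 11, so that Meaf6-208 ends after 181 codons, whereas Meaf6-205, which lacks the exon, runs for 191 codons. Meaf6-208 has 2 junctions after its stop and is annotated as a target of nonsense-mediated decay, the pathway that removes messages whose stop lies well upstream of the last junction. Keeping the 146-base Dmap1 intron in Dmap1-201 brought a stop after 303 of the 468 codons, with 3 junctions after it. The annotation holds transcripts with and without the Kat5 exon, the Meaf6 exon and the Dmap1 intron, whereas no annotated transcript joins the exons on either side of the Ep400 exon. None of the protein products was measured.

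Prmt5 itself was checked first. Its normalized counts, reads per gene divided by a size factor for the library's depth, were 1291, 1994, 1060 and 1808 in the Prmt5-null libraries PRMT5-10617, PRMT5-10618, PRMT5-10770 and PRMT5-10771, against 13087 and 11084 in the control libraries CTRL-10650 and CTRL-10370 and 11657 and 11267 in CTRL-10596 and CTRL-10597. Values per library are given below in this order. The log2 fold change, always Prmt5-null minus control on log2(normalized count + 1), was -2.98 ± 0.17 (SE, n = 4 per genotype, limma adjusted p = 6.14e-06). The libraries held 42752293 to 47174851 reads on genes in the Prmt5-null and 36731721 to 50366174 in the control group. The B cell markers Ms4a1, Cd79b and Pax5 were abundant in both genotypes. Ms4a1 stood at 43980 ± 7881 normalized counts (SD, n = 4) in Prmt5-null and 46740 ± 3126 in control cells, Cd79b at 30530 ± 3325 and 28360 ± 1626, and Pax5 at 6465 ± 761 and 5623 ± 434. Cd79a, a chain of the B cell receptor complex, fell by 0.74 on the log2 scale (limma adjusted p = 0.000327), and the death receptor gene Fas rose by 0.47 (limma adjusted p = 0.00504). Of 15 fibroblast markers 13 could be tested, all 13 had a positive log2 fold change and 3 passed the test (Col1a2, Col3a1 and Sparc), and the list's sum was 7892 to 13510 in Prmt5-null against 5292 to 9152 in control libraries. In the 8 fits that left out a library Col3a1 passed in 8, Col1a2 in 5 and Sparc in 2, and on whole reads edgeR called 4 of the markers and DESeq2 7. Of the 7 T cell markers Cd3e was at 0 in every library, and only Trac and Lck were high enough to be tested. Cd3d, Cd3g, Cd4 and Cd8a had highest values of 3.566, 11.11, 5.385 and 9.342 normalized counts in any library. Lck passed, and with 303.6 to 462 against 660.2 to 780.3 normalized counts it made up most of the list's sum of 327 to 486.1 against 695.8 to 810.8. The sum of the myeloid markers was 60.18 to 132.7 against 46.59 to 142.6, with S100a8 and S100a9 at 0. The part of feeder or other cells in the values below was not tested, and in bulk RNA fewer cells of a type and less RNA per cell cannot be told apart.

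All 10 genes were well expressed in both genotypes. Per kilobase of annotated exon, the scale on which genes can be set side by side, the control means ran from 1840 ± 108 normalized counts (SD, n = 4) in Ruvbl2 to 167 ± 23.1 in Meaf6. Ruvbl1, which forms a hexameric AAA+ ATPase ring with Ruvbl2, came next to it with 1310 ± 46.2. The following 5 genes lay close together, namely Brd8 at 597 ± 65.5, Ep400 at 572 ± 79.3, Kat5 at 540 ± 36.2, Dmap1 at 474 ± 38.4 and Epc1 at 453 ± 43.7. Trrap stood at 372 ± 61.1 and Ing3 at 202 ± 11.4. Among neighbours in this order the control libraries of Brd8 and Ep400 overlapped, as did those of Ep400 and Kat5, of Dmap1 and Epc1, of Epc1 and Trrap, and of Ing3 and Meaf6. The ranges did not overlap between Ruvbl2 and Ruvbl1, Ruvbl1 and Brd8, Kat5 and Dmap1, or Trrap and Ing3. The exon length used is the union of all annotated exons (10633 bases for Brd8, 3509 for Kat5), so a gene with many retained-intron transcripts has a lower value per kilobase. Ruvbl1 and Ruvbl2 also serve in complexes outside Tip60.

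**Figure D1:**
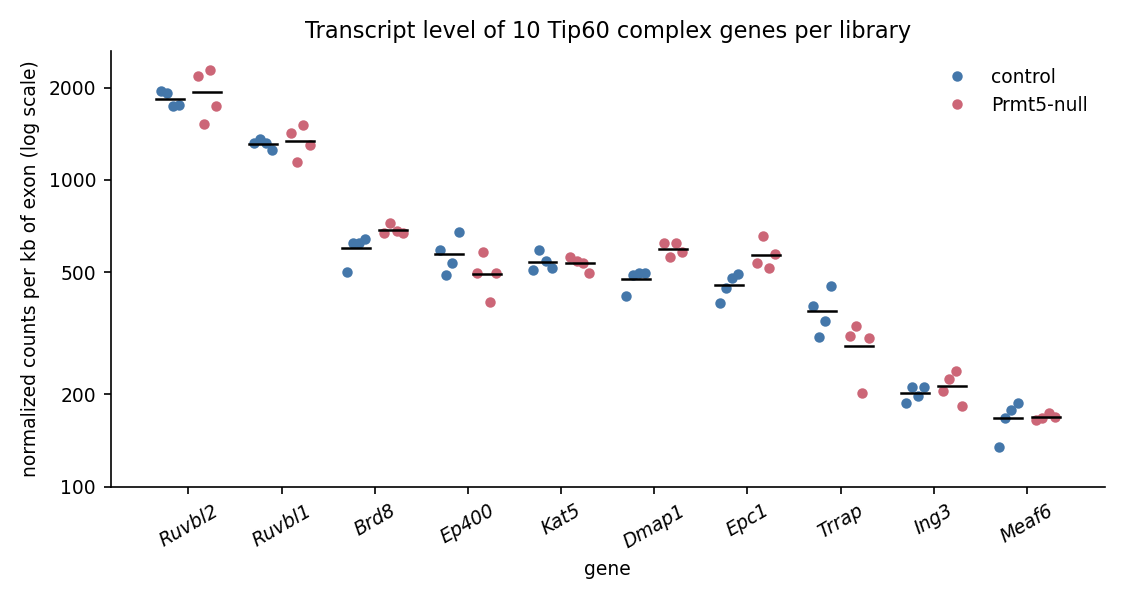
Normalized counts per kilobase of annotated exon (log axis) for each of the 10 genes, ordered by control mean, with 1 point per library (4 control, blue; 4 Prmt5-null, red) and a bar at each mean. The points of the genotypes separate for Brd8, Dmap1 and Epc1 and overlap for the other 7 genes.

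At the gene level 2 of the 10 genes passed an adjusted p of 0.05 (limma, Benjamini-Hochberg over 16250 genes), both higher in Prmt5-null cells. Of all genes tested 13.8% passed in either direction and 6.51% passed as higher. None of the 10 also reached a change of 1.5-fold, which 6.48% of all genes tested did, and the edgeR and DESeq2 tests on whole reads called 0 of the 10 at this fold as well. In 3 of the 10 the genotypes did not overlap, a pattern seen in 19.8% of all genes tested. The median log2 fold change of the 10 genes was 0.041, beside 0.0024 over all genes tested. Leaving out a library moved this median between -0.0026, without PRMT5-10770, and 0.074, without PRMT5-10618.

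Kat5, the catalytic subunit, gave 1972, 1905, 1882 and 1742 normalized counts in the 4 Prmt5-null libraries and 1785, 2067.5, 1906 and 1815 in the 4 control libraries. The genotypes were interleaved, with a control library highest and a Prmt5-null library lowest. The log2 fold change was -0.013, with a 95% confidence interval of -0.18 to 0.16 (limma adjusted p = 0.939). Reads of the RNase H2 gene Rnaseh2c, which overlaps Kat5 on the opposite strand, could enter this count if strand was not used in counting, and the setting is not given in the sources used here.

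Ing3, the PHD-finger protein that reads methylated histone H3 lysine 4, ranged from 879.99 to 1146 normalized counts in Prmt5-null and from 898 to 1012 in control cells. Its log2 fold change was 0.072 ± 0.099 (SE, limma adjusted p = 0.673). Meaf6, a small subunit shared with other MYST acetyltransferase complexes, ranged from 861 to 902 in Prmt5-null and from 701 to 978 in control cells, a log2 fold change of 0.024 ± 0.11 (SE, limma adjusted p = 0.914). For both genes the range of one genotype lay inside that of the other.

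Epc1, the scaffold that binds Kat5 to nucleosomes, was higher in Prmt5-null cells. Its normalized counts were 2400, 2929, 2313 and 2564 in Prmt5-null against 1769, 1993, 2139.5 and 2211 in control libraries, and the lowest Prmt5-null value exceeded the highest control value. The log2 fold change was 0.33 ± 0.098 (SE, 1.26-fold, limma adjusted p = 0.0432). The call was lost when any of 6 libraries was left out, PRMT5-10617, PRMT5-10618, PRMT5-10771, CTRL-10650, CTRL-10370 or CTRL-10596, with an adjusted p of up to 0.114 and a log2 fold change of 0.26 to 0.38. It was also lost without the filter on low values (limma adjusted p = 0.0551) and without the intensity trend (limma adjusted p = 0.0911), and it was kept in 9 of 18 placements of an experiment block. The edgeR quasi-likelihood test on whole reads gave an adjusted p of 0.0451. An antisense transcript, Gm28529, overlaps Epc1.

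Ep400, the SWI2/SNF2-type ATPase of the complex, gave 6923.5, 8113, 5567 and 6942 normalized counts in Prmt5-null and 8269, 6848, 7456 and 9410 in control libraries. The lowest library was PRMT5-10770 and the highest CTRL-10597, with the others interleaved. The log2 fold change was -0.22, with a 95% confidence interval of -0.48 to 0.048 (limma adjusted p = 0.261). It was -0.12 without PRMT5-10770 and -0.14 without CTRL-10597.

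Ruvbl1 ranged from 2173 to 2876 normalized counts in Prmt5-null and from 2371 to 2582 in control cells, and Ruvbl2 from 4418 to 6641 and from 5047 to 5644. In both genes PRMT5-10770 was the highest library and PRMT5-10618 the lowest, which spread the Prmt5-null group beyond the control group on either side. The log2 fold changes were 0.027 ± 0.091 for Ruvbl1 (SE, limma adjusted p = 0.878) and 0.055 ± 0.12 for Ruvbl2 (limma adjusted p = 0.8). Ruvbl2 overlaps Gys1 and Lhb on the opposite strand.

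Trrap, the large pseudokinase that transcription factors contact, had the most negative estimate of the 10 genes. Its normalized counts were 6449, 6979, 4196 and 6345 in Prmt5-null and 8078, 6388, 7217 and 9368 in control libraries. The groups overlapped through CTRL-10370, and PRMT5-10770 was the lowest library. The log2 fold change of -0.39 ± 0.16 (SE) did not pass (limma adjusted p = 0.125), and without PRMT5-10770 it was -0.22 (adjusted p = 0.21). Without CTRL-10597, the highest library, it was -0.29 (limma adjusted p = 0.286).

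Brd8, the bromodomain subunit, gave 7142, 7691, 7260 and 7110 normalized counts in Prmt5-null and 5317.5, 6605.5, 6637 and 6843 in control libraries. The genotypes did not overlap, and the log2 fold change was 0.21 ± 0.087 (SE). The exact two-sided permutation test over the libraries gave p = 0.0286, the smallest that 4 against 4 allows. This p follows from the lack of overlap alone, and Epc1 and Dmap1 had the same value. Brd8 did not pass over all genes (limma adjusted p = 0.137).

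Dmap1, the subunit named for its binding to the DNA methyltransferase Dnmt1 and also a member of the SRCAP complex, was the other gene that rose. It gave 1642.5, 1472, 1645 and 1531 normalized counts in Prmt5-null and 1099, 1293, 1305 and 1305 in control libraries. The genotypes did not overlap, and CTRL-10650 stood below the other 3 control libraries, which lay close together. The log2 fold change was 0.33 ± 0.086 (SE, 1.26-fold, limma adjusted p = 0.0244). The call was lost without PRMT5-10617, PRMT5-10771 or CTRL-10650, with an adjusted p of up to 0.0663, and was kept under each of 9 other settings and under all 18 placements of the libraries in 2 experiments.

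**Figure D2:**
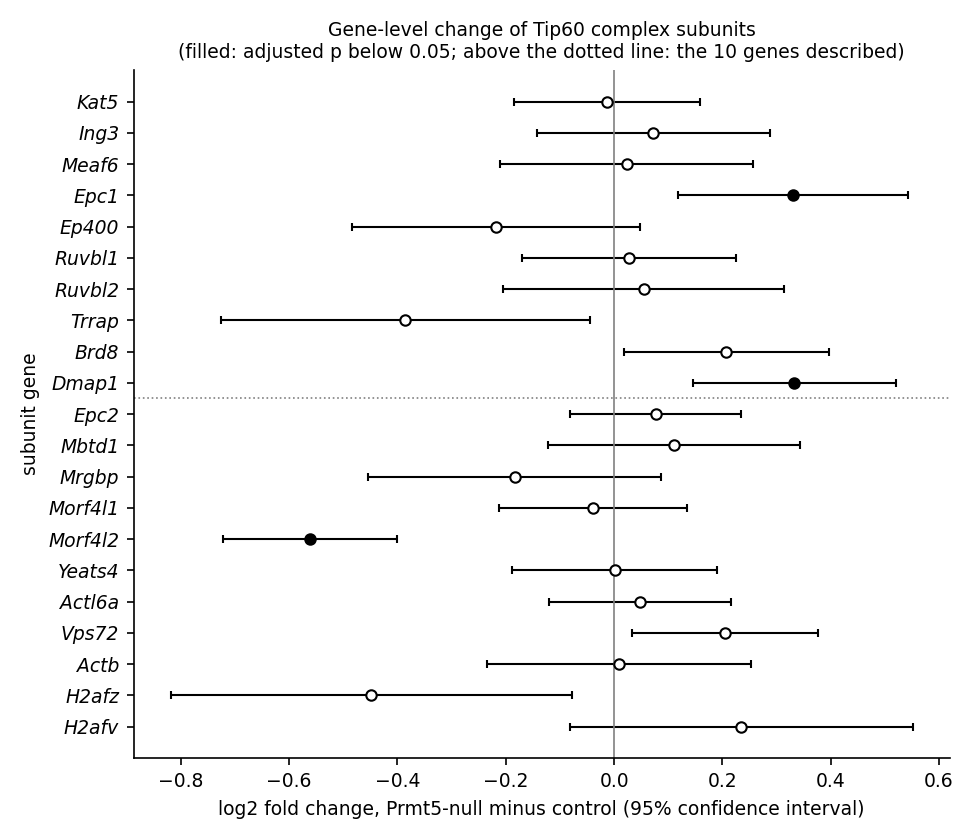
Log2 fold change (Prmt5-null minus control) with its 95% confidence interval from limma, 4 libraries per genotype, for the 10 genes above the dotted line and 11 further subunits below it, with filled points for an adjusted p below 0.05. Epc1 and Dmap1 lie above 0 and Morf4l2 below 0 as filled points, and the intervals of Trrap, Brd8, Vps72 and H2afz leave out 0 although these genes did not pass over all genes.

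Splicing was read from the deposited events. An event was deposited for 6 of the 10 genes (Kat5, Meaf6, Ep400, Ruvbl2, Brd8 and Dmap1) and for none of Trrap, Ruvbl1, Epc1 and Ing3. The genes were chosen with earlier results known, so this count only describes them. Over all genes with a mean above 50 normalized counts, 11.4% carried a deposited event. Among genes with a mean of at least 500 and a transcript of at least 8 exons, which all 10 genes are, it was 19.7%, a comparison added after the data were seen. The tables hold, per gene and type of event, the most significant difference that the authors' software found, with a difference of at least 0.1 in mean inclusion level. Inclusion levels below therefore describe events that were selected for differing between the genotypes, and no test is given for them. An inclusion level is the fraction of transcripts that keep the exon or intron, estimated from reads and corrected for the length of each form. The deposited lists give 4 levels for each genotype without naming the library. The first group was taken as control, and in an exon of Prmt5 itself that group had levels of 0.989 to 1, against 0.027 to 0.304 in the other.

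In Kat5 the exon shown above was skipped more often in Prmt5-null cells. Its inclusion level was 0.388, 0.402, 0.397 and 0.26 in control and 0.264, 0.199, 0.164 and 0.181 in Prmt5-null libraries. In control cells 1 value sat at the upper end of the Prmt5-null values, so the lists overlapped narrowly, and the other 3 control values were higher than all Prmt5-null values. The mean level was 0.362 in control and 0.202 in Prmt5-null cells, a difference of -0.16. With reads summed over the libraries, 404 of 705 informative reads in control and 210 of 573 in Prmt5-null cells came from the inclusion form, which gave levels of 0.373 (95% interval 0.338 to 0.409) and 0.204 (0.177 to 0.233). These intervals, from the exact Clopper-Pearson method, cover counting error only. Both forms keep the reading frame, and the shorter one was the more abundant in both genotypes. The total of Kat5 transcripts had not passed the test, as given above.

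In Meaf6 the exon with the stop codon was included less in Prmt5-null cells. Levels were 0.312, 0.317, 0.163 and 0.221 in control and 0.202, 0.109, 0.149 and 0.069 in Prmt5-null libraries, with means of 0.253 and 0.132 and a difference of -0.121. The lists overlapped. Only 34 to 63 reads per library stood behind these levels, and the summed levels were 0.243 (95% exact interval 0.188 to 0.306) and 0.133 (0.0927 to 0.184). The form without the stop, annotated as coding, thus made up the larger share in both genotypes.

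In Ep400 the frame-shifting loss of exon 48 was more frequent in Prmt5-null cells. The exon was included at 0.923, 0.909, 0.935 and 0.868 in control and at 0.747, 0.742, 0.642 and 0.763 in Prmt5-null libraries. The lists did not overlap. The means were 0.909 and 0.723, and the difference of -0.185 was the largest in size among the 6 events on this scale. Skipping reads numbered 31 of 826 in control and 81 of 650 in Prmt5-null cells, and the summed levels were 0.909 (95% exact interval 0.874 to 0.936) and 0.731 (0.683 to 0.777).

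The event in Ruvbl2 rests on very few reads. The target is the exon at chr7:45429454-45429595 (minus strand), exon 4 of 15 in Ruvbl2-201, and the skipping form joins exon 1 to exon 7, leaving out exons 2 to 6. From junction and exon reads the levels were 1, 0.916, 0.969 and 1 in control and 0.928, 0.929, 0.902 and 1 in Prmt5-null libraries, means of 0.971 and 0.94 that differ by -0.0315. From junction reads alone the means were 0.762 and 0.506 and the difference was -0.256. No annotated transcript joins the target exon directly to exon 1 or to exon 7, the flanks of this event. The level by junction reads is therefore not the fraction of transcripts that keep the exon. Only 4 skipping reads in all were found in control and 9 in Prmt5-null libraries, with 0 to 4 in any library, and a list of levels that overlaps this widely does not separate the genotypes.

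In Brd8 the exon at chr18:34602203-34602247 (minus strand), exon 21 of 22 in Brd8-201, was included more in Prmt5-null cells, whereas the mean level of the other 4 exons was lower there. It holds 45 bases and codes for codons 918 to 932 of 951, so both forms stay in frame. Levels were 0.585, 0.649, 0.639 and 0.569 in control and 0.812, 0.688, 0.722 and 0.808 in Prmt5-null libraries, and the lists did not overlap. The means were 0.611 and 0.758, a difference of 0.147, and the summed levels were 0.614 (95% exact interval 0.576 to 0.652) and 0.757 (0.722 to 0.789). No annotated transcript joins its neighbouring exons directly.

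In Dmap1 the intron shown above was retained more in Prmt5-null cells. The retained fraction was 0.06, 0.012, 0.075 and 0.044 in control and 0.171, 0.222, 0.09 and 0.189 in Prmt5-null libraries, and the lists did not overlap. The means were 0.0478 and 0.168, a difference of 0.12. Reads from the retained form numbered 27 of 281 in control and 135 of 449 in Prmt5-null cells, and the summed levels were 0.0465 (95% exact interval 0.0306 to 0.0678) and 0.165 (0.138 to 0.195). The libraries were made from total RNA after removal of rRNA, so transcripts that are not yet fully spliced are also counted as retained. Dmap1 was thus the only one of the 10 genes with both a passed gene-level test and a deposited splicing event.

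**Figure D3:**
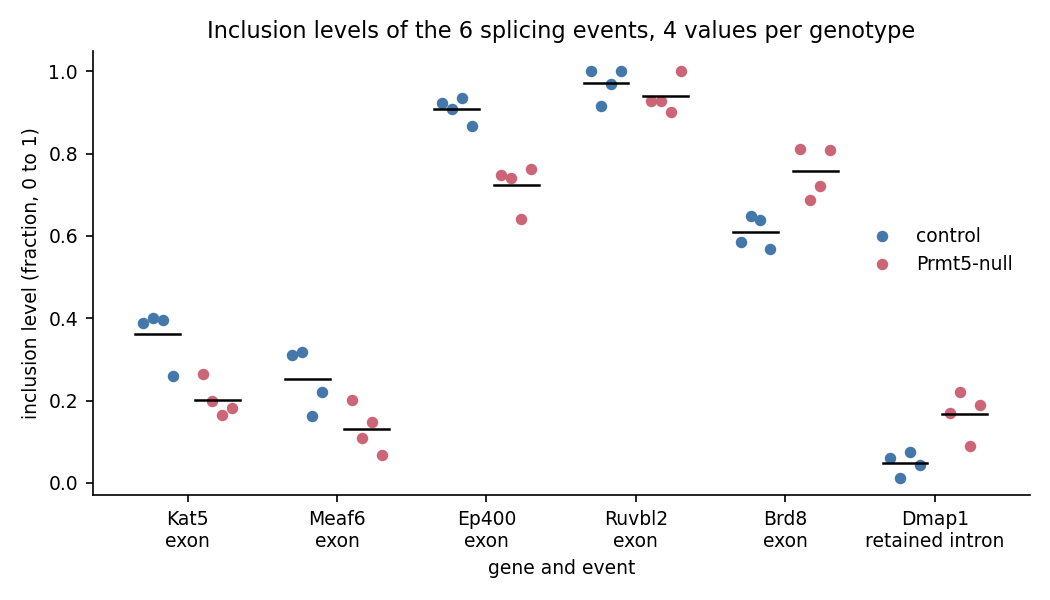
Inclusion level (fraction from 0 to 1, junction and exon or intron reads) of the 6 deposited events, with 4 control values (blue) and 4 Prmt5-null values (red) each and a bar at each mean. Control values lie above all Prmt5-null values for Ep400 and below all of them for Brd8 and Dmap1, and the values overlap for Kat5, Meaf6 and Ruvbl2.

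Of the 6 events, 3 had lists of levels that did not overlap (Ep400, Brd8 and Dmap1), where 50.8% of the 1918 deposited events did. By junction reads alone the lists of Kat5 did not overlap either, with a lowest control level of 0.25 and a highest Prmt5-null level of 0.233, which made 4 of 6, beside 51.1% of the deposited events. The median size of the difference was 0.134 over the 6 events and 0.158 over all deposited events. Of the 5 exons 4 had a lower mean level in Prmt5-null cells, among them Ruvbl2 with a difference of -0.0315 and widely overlapping levels, and among all 913 deposited exon events 67.4% had. The retained intron of Dmap1 was higher in Prmt5-null cells, as were 86.9% of the 337 deposited intron events. The 10 genes were picked with results of these data known, so the count of 6 is a description. Of the 67 genes in 7 lists of related genes, given further below, 10 carried an event.

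Read side by side, gene level and splicing did not move together in a single way. Kat5, Meaf6 and Ruvbl2 had log2 fold changes between -0.013 and 0.055 with lower mean inclusion levels, from lists that overlapped by junction and exon reads. Ep400 had less inclusion and a negative estimate of the gene level that did not pass. Brd8 had more inclusion with a positive estimate that did not pass, and Dmap1 more retention with a gene level that rose.

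**Figure D4:**
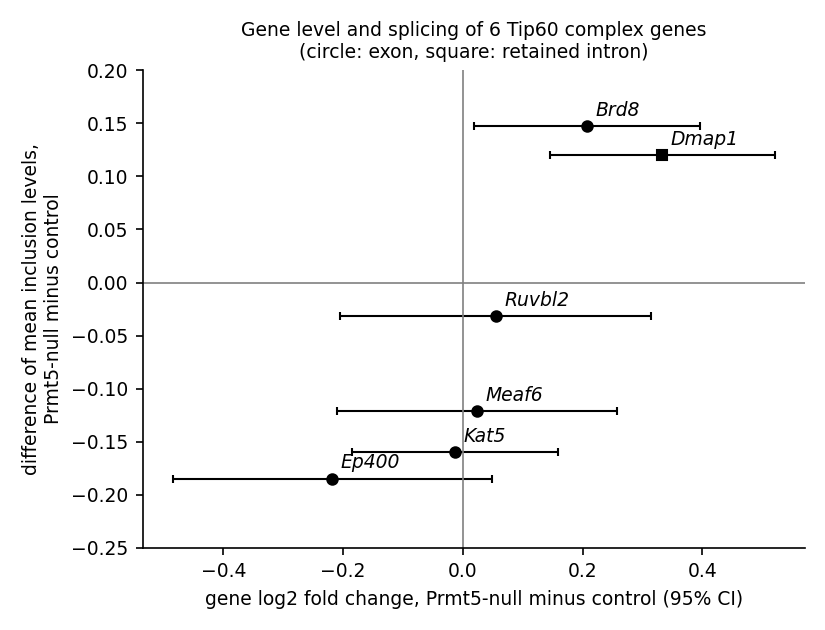
Difference of the mean inclusion levels (vertical, fraction) against the gene's log2 fold change with its 95% confidence interval (horizontal), both Prmt5-null minus control, for the 6 genes with an event. Dmap1 (square, intron) and Brd8 lie above 0 on both axes, Ep400 lies below 0 on both, and Kat5, Meaf6 and Ruvbl2 lie near 0 on the horizontal axis with lower mean levels, Ruvbl2 close to 0 on both axes.

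Of the 11 further subunits of the complex, 1 passed the test at the gene level, beside 13.8% of all genes tested. Morf4l2, a paralog of the chromodomain protein Morf4l1, gave 6626, 6475, 6754 and 5874 normalized counts in Prmt5-null and 9543, 10170, 8883 and 9367 in control libraries. No library overlapped, and the gene fell by 0.56 ± 0.074 on the log2 scale (SE, limma adjusted p = 0.000578), a call kept without any single library. Morf4l1 itself ranged from 854 to 948 against 902 to 949, a log2 fold change of -0.04 (limma adjusted p = 0.784). The counts of Morf4l1, Actb and H2afz, which have processed copies elsewhere in the genome, come from uniquely mapped reads and are uncertain to that extent. Mrgbp, which binds both Morf4l proteins, had no passed change (log2 fold change -0.18, limma adjusted p = 0.359) but carried an intron event at chr2:180584488-180584693 (plus strand). The intron was retained at 0.855, 0.846, 0.924 and 0.863 in control and at 0.696, 0.802, 0.672 and 0.843 in Prmt5-null libraries. The annotated transcripts that keep this intron, and the one that splices it out, are all of the retained-intron type. No coding transcript is annotated in either form, so these levels are not shares of all Mrgbp transcripts. The lists were separated narrowly (0.846 against 0.843) and overlapped by junction reads alone (0.838 against 0.84). The difference of the means was -0.119. The median log2 fold change of the 11 subunits was 0.0087.

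Related complexes were followed in lists of their own. None of the 3 SRCAP genes, the 12 INO80 genes or the 12 genes of other MYST acetyltransferases and their partners passed, with medians of 0.013, 0.031 and 0.041 on the log2 scale. At an unadjusted p below 0.05 there were 0, 3 and 1 genes in these lists, edgeR on whole reads called 0 in each, and DESeq2 called 0, 2 and 0. In the SAGA complex, which shares Trrap with Tip60, 4 of 18 passed, beside 13.8% of all genes tested. The 3 with the largest change were Taf10, which fell by 0.4 on the log2 scale (limma adjusted p = 0.0119), and Taf9 and Tada1, which rose by 0.35 (0.0268) and 0.35 (0.0428). Taf10 passed without any single library, Taf9 in 4 and Tada1 in 1 of the 8 fits that left out a library. Of the 6 genes of the R2TP and TTT cochaperones, which assemble Ruvbl1, Ruvbl2 and large kinases of the Trrap family, Tti2 rose by 0.34 (limma adjusted p = 0.0161), in 6 of those 8 fits.

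Trrap's active relatives, the 5 kinases Atm, Atr, Prkdc, Mtor and Smg1, all had negative estimates, with a median log2 fold change of -0.21. Of the 5 kinases 2 passed, beside 13.8% of all genes tested. Atr, the kinase of replication stress, gave 3354, 4047, 2728 and 3598 normalized counts in Prmt5-null against 4716.5, 4925, 4542 and 5235 in control libraries and fell by 0.51 ± 0.11 (SE, limma adjusted p = 0.00916). Atm, the break-sensing kinase that Kat5 acetylates, fell by 0.48 ± 0.13 (limma adjusted p = 0.0308), a call kept in 3 of the 8 fits that left out a library. In both genes the genotypes did not overlap, a pattern seen in 19.8% of all genes tested. PRMT5-10770 was the lowest of the 8 libraries in each of the 5 kinases, as it was in Trrap and Ep400. CTRL-10597 was the highest in Atm, Atr, Mtor and Smg1, and also in Trrap and Ep400, whereas PRMT5-10618 was the highest in Prkdc. Without PRMT5-10770 4 of the 5 estimates were negative, with a median of -0.12, and that of Prkdc was 0.04, where it was -0.11 with all libraries. Atr and Atm still passed without PRMT5-10770, at log2 fold changes of -0.41 and -0.38 (limma adjusted p = 0.00753 and 0.049). Without CTRL-10597 Atr passed (limma adjusted p = 0.031) and Atm did not.

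Deposited splicing events were found in 1 of the 11 further subunits, none of the 3 SRCAP genes, 2 of 12 INO80 genes, 1 of 18 SAGA genes, 3 of 12 genes of the other MYST complexes, 1 of 6 cochaperones and 2 of 5 kinases. Among the acetyltransferases, Kat7, the catalytic subunit of another MYST complex, showed lower inclusion of an exon in Prmt5-null cells. Its levels were 0.666 to 0.764 in control against 0.535 to 0.605 in Prmt5-null cells, without overlap. Those of Kat5 overlapped by junction and exon reads. Lower inclusion was found in 67.4% of all deposited exon events. The other events of the MYST list were introns, retained more in Prmt5-null cells in Ing4 (difference 0.127) and less in Brpf1 (-0.123). These genes were named after their values were seen.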

How the data were processed

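RNA-seq was done on rRNA-depleted total RNA of elutriated B cells, 4 libraries per genotype, sequenced as stranded paired-end reads. Per the labels and the study's methods, the authors trimmed reads with Trimmomatic 0.32, aligned them to mm10 (GRCm38) with STAR 2.3.0e, and counted uniquely mapped exonic reads per Ensembl gene with featureCounts 1.4.4. The deposited gene values are a signal, read counts divided by DESeq2 1.14.1 size factors. They were whole multiples of 1 read (within 0.1 read) for 100% of values in each library. The strand setting of the counting is not given in the sources used here. The deposited rMATS tables (5 types of event) give inclusion levels as a fraction and read counts for 4 libraries per genotype, without library names; the authors' p-values, FDR values and inclusion differences in them were not used. Levels recomputed from the deposited reads and form lengths differed from the deposited fractions by at most 0.0005.

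Genes whose mean normalized count reached 10 entered limma 3.58.1 (R 4.3.3, eBayes with trend, two-sided) on log2(normalized count + 1), and p-values were adjusted over all of them by Benjamini-Hochberg; this scale understates the change of low genes. Alternatives were pseudocounts, filters, scalings, edgeR 4.0.16 and DESeq2 1.42.0 on whole reads, leaving out each library, and experiment as a block in 18 placements. Each test was first run on simulated data. Python 3.11.15, pandas 2.3.3 and SciPy 1.17.1 were used for events. Where 3 symbols of the lists had more than 1 identifier, the one with the higher mean was used. Exon positions, reading frames and sequences come from GENCODE vM21; where several transcripts fit, the one with the longest coding part was taken. The 10 genes are those named in the report's opening, and all 10 and all their events are described; of every other list at most the 3 largest changes past the test, and further subunits with an event, are named by rule, and further genes (such as Morf4l1, Kat7, Ms4a1, Cd79b and Pax5) were named after their values were seen. The members and lists were chosen with earlier results of these data known. Some markers of the B cell list are not reported here.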

Additional observations from a re-analysis of the deposited data

Results flagged for a closer look

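In groups of 4 values, 1 value was far from the other 3 in 2 of 20 groups of normalized counts and in 3 of 24 groups of inclusion levels, where chance gives about 1 in 20. The groups of inclusion levels hold each list by both read sets, which share reads, so they are not independent. Both normalized counts were low values of CTRL-10650, Brd8 at 5317 and Dmap1 at 1099. Without that library the log2 fold change was 0.12 for Brd8 (limma adjusted p = 0.309) and 0.27 for Dmap1 (limma adjusted p = 0.0662). In the Kat5 exon, 1 control value was low both by junction and exon reads (0.26) and by junction reads alone (0.25). In the Ep400 exon, 1 Prmt5-null value was low by junction reads (0.631). The lists do not name libraries, so none of these could be left out with its gene-level value.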

How the results depend on the processing

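The number of the 10 genes past an adjusted p of 0.05 was 1 without a filter on low values, 1 without the intensity trend and 1 as the lowest of 18 placements of an experiment block (Dmap1 in the first and second), and 0 to 2 when a library was left out. For the further subunits it was 2 in the highest placement and 1 to 2 when a library was left out. No gene of the 10 was called at 1.5-fold in any setting run. Of the estimates near 0, that of Kat5 was 0.0032 after quantile normalization, and with a library left out the log2 fold changes ran from -0.041 to 0.0302 for Kat5, from -0.076 to 0.083 for Meaf6, from -0.033 to 0.102 for Ruvbl1, from -0.033 to 0.16 for Ruvbl2 and, all positive, from 0.014 to 0.141 for Ing3. The signs of Ing3, of the other 5 genes and of Prmt5 were kept in all settings run. Leaving out a library gave 1 to 6 calls in the SAGA list and 1 to 7 among fibroblast markers. With a difference of at least 0.25 required, 1 gene kept an event, Ruvbl2, whose difference was -0.256 by junction reads only. Junction and exon reads alone, an alternative added after the data were seen, left 5 genes. The other 5 event differences moved by less than 1 SD between libraries. No paired analysis was possible because the genotypes share no replicate number. Read numbers of 34 to 63 per library limit the Meaf6 event, and 0 to 4 skipping reads the Ruvbl2 event.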
